A study of Mus musculus with 12 samples.

Results

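LPS-treated CD8 T cells were compared with untreated (Naive) CD8 T cells in 6 of the 12 mRNA libraries of the series, 3 from each group, chosen by their group labels. All libraries came from spleen cells of C57BL/6 mice that were captured as CD8 T cells with magnetic beads and then kept in culture for 6 h. The Naive group received nothing, the LPS group received bacterial lipopolysaccharide at 1 µg/ml, and the other 6 libraries came from cells given an antibody to CD3 (aCD3, 1 µg/ml) or interferon gamma (IFNg, 70 ng/ml). The treatment label of the Naive group reads untreated and gives no time, while those of the other groups give 6 h. The labels do not agree on the unit of the LPS and aCD3 doses, which is µg/ml among the sample characteristics and mg/ml in the protocol, and the labelled age of 6 weeks is below that in the methods, so dose and age are uncertain. No genetic change is given for any group. Nothing in the labels ties the replicates to separate mice, so the p-values below measure the spread between these libraries, which may be technical. Of 20778 genes in the count table, 12122 had enough counts to be tested, and total counts ran from 10196200 to 18900500 in the 6 libraries.

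LPS is a component of the outer membrane of Gram-negative bacteria. It is recognised by Toll-like receptor 4 (Tlr4) together with its co-receptors Ly96 (MD-2) and Cd14, and the receptor signals through the adaptors Myd88 and Ticam1 to the transcription factor NF-κB and to interferon regulatory factors. Macrophages, dendritic cells and mouse B cells are known for strong responses to LPS, whereas resting T cells are known to carry little of the receptor. In bulk RNA, fewer cells of a type and less RNA per cell cannot be told apart, and a gene cannot be assigned to the cell type that made its RNA.

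The labelled cell type was therefore checked first. Levels are given as CPM, counts relative to library sizes that were scaled by the trimmed mean of M-values (TMM), in the order of replicates 1 to 3. Cd8a, a chain of the CD8 co-receptor, was at 206, 227 and 270 CPM in the Naive libraries and at 196, 188 and 231 CPM in the LPS libraries, and Cd3e, a chain of the T cell receptor complex, was at 133, 122 and 128 CPM and at 98.2, 87.6 and 111 CPM. Transcripts of B cells were as abundant. The median level of 15 B cell markers in Naive was 52.0 CPM per kb of exon, against 54.6 CPM per kb for 6 markers of CD8 T cells, 14.2 for 16 markers of macrophages and monocytes, 7.05 for 4 markers of CD4 T cells and 1.75 for 6 markers of NK cells. In LPS these medians were 58.4, 44.2, 4.87, 4.41 and 1.41 CPM per kb. None of the 15 tested B cell markers had a Naive mean under 1 CPM, and the libraries thus held RNA of cells other than CD8 T cells in all 6 samples. The immunoglobulin genes Ighm, Ighd and Igkc and the receptor genes Trac, Trbc1 and Trbc2 were not analysed here under those symbols.

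The summed level of the B cell markers lay between 4580 and 4904 CPM in Naive and between 2853 and 4005 CPM in LPS, without overlap. Its members did not move one way. A gene was called when its adjusted p was under 0.05 (edgeR quasi-likelihood test, Benjamini-Hochberg over all 12122 genes). This rule called 49.3% of all tested genes, with 26.9% up and 22.3% down. Of the 15 B cell markers 5 were lower in LPS, among them the B cell receptor signalling chain Cd79a (3.07-fold, log2 fold change -1.62 ± 0.16 SE, adjusted p = 1.98e-05), and 2 were higher, namely the BAFF receptor Tnfrsf13c (1.83-fold) and the B cell transcription factor Pax5 (1.31-fold, adjusted p = 0.0228). The call of Pax5 was lost without Naive replicate 2 or 3 (adjusted p = 0.0577 and 0.0713) and when libraries were scaled by total counts alone (adjusted p = 0.261). When replicate numbers were used as pairs, 4 were called higher. The markers of CD8 T cells summed to between 1125 and 1192 CPM in Naive and between 981 and 1156 CPM in LPS, and 3 of 6 (Cd3d, Cd3e and Cd3g) were called lower, with log2 fold changes of -0.38, -0.37 and -0.60. With the mean B cell marker level of each library as a covariate these were -0.23, -0.33 and -0.35 and not called (adjusted p = 0.226, 0.123 and 0.0728), and the median of the 6 went from -0.28 to -0.33.

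**Figure D1:**
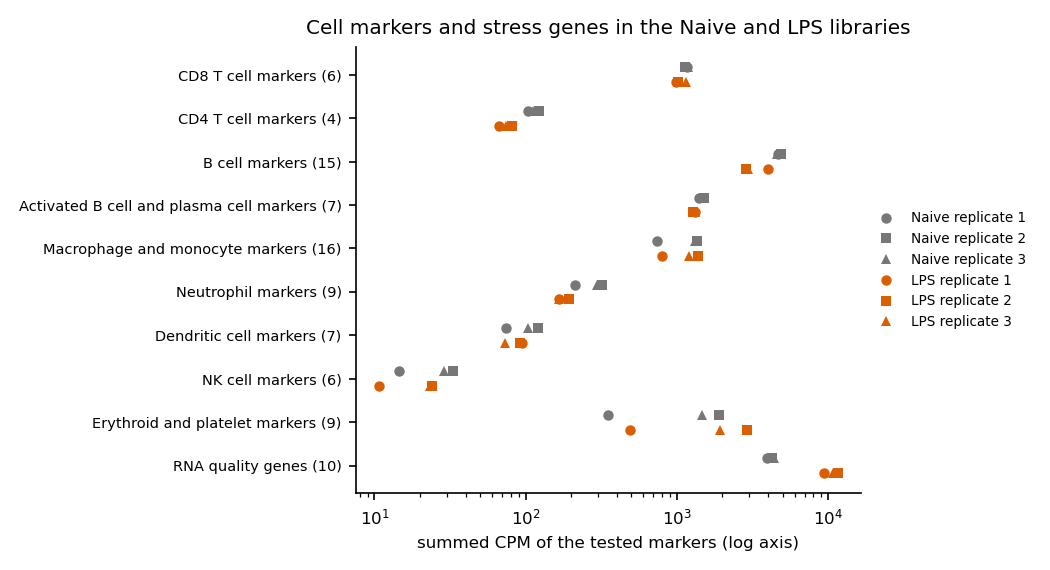
Summed CPM (log axis) of the tested genes of 9 cell marker lists and 1 list of stress genes, with 1 point per library (grey, Naive; orange, LPS; circle, square and triangle for replicates 1, 2 and 3) and the number of genes in brackets. B cell markers lie above CD8 T cell markers in all 6 libraries, and replicate 1 holds the fewest red cell transcripts in both groups.

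Replicate 1 stood apart from replicates 2 and 3. On the 500 most variable genes the first principal component, with 49.2% of the variance, separated LPS from Naive, and the second, with 20.0%, separated LPS replicate 1 from the other libraries. The 9 red cell and platelet markers summed to 351 CPM in Naive replicate 1 and to 490 CPM in LPS replicate 1, against 1473 to 2895 CPM in the other 4 libraries. Macrophage and monocyte markers summed to 735 and 795 CPM in these libraries and to 1195 to 1374 CPM in the rest. The mean log2 CPM of the B cell markers was 7.56 in LPS replicate 1, against 7.11 and 7.17 in LPS replicates 2 and 3 and 7.65 to 7.74 in Naive. Results were also computed without single libraries, without replicate 1 of all groups, with the replicate number as a block and with the B cell marker level as a covariate, and the part of these differences in the results was not tested otherwise.

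LPS changed the measured level of a large share of the genes. Of 12122 genes, 5974 (49.3%) passed the test, 3265 (26.9%) higher and 2709 (22.3%) lower in LPS, and in 5801 of the called genes the 3 LPS libraries did not overlap the 3 Naive libraries. The 5801 were counted only among genes called from these same libraries, so they are no separate support for the calls. Most changes were small. The median size of a called change was 0.65 on the log2 scale, the median over all genes was -0.01, and 188 genes were higher and 133 lower by at least 4-fold. Scaling by library size alone shifted the median of all genes to -0.22 and turned the split of the calls from 54.7% higher to 32.8% higher, so small changes below are read against the TMM scale. Without replicate 1 of all 4 groups, an alternative chosen after seeing the data, 6720 genes were called, 5574 of them also among the 5974. With the B cell marker level as a covariate the number of calls was 2557, 1704 higher and 853 lower, in a fit where this level itself differed between the groups.

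**Figure D2:**
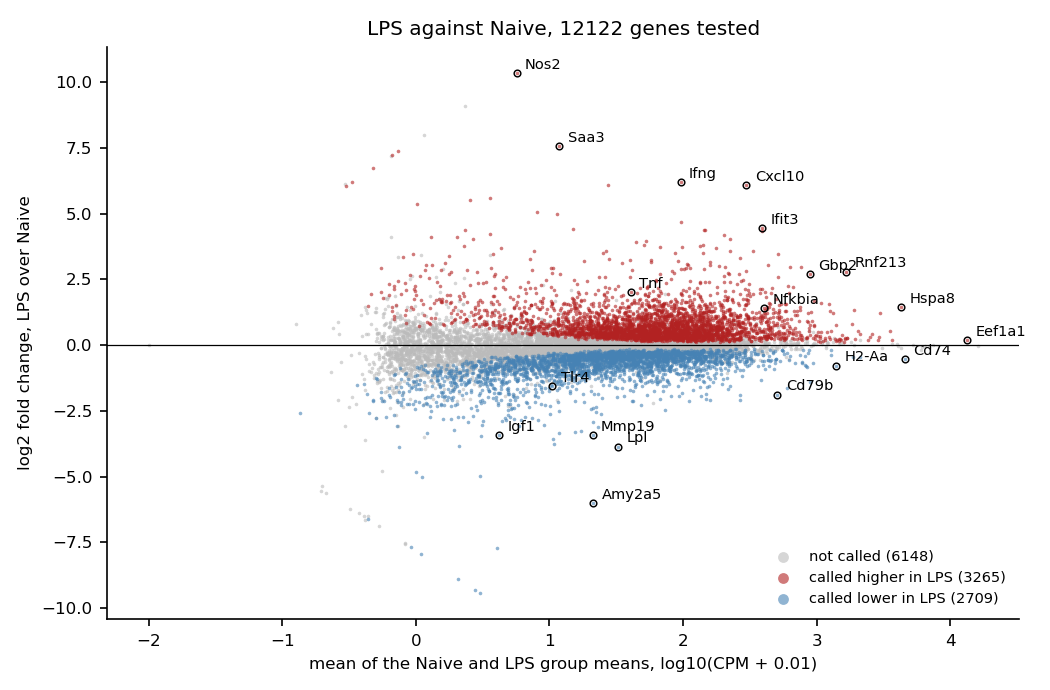
Log2 fold change of LPS over Naive for each tested gene against the mean of the 2 group means, as log10(CPM + 0.01), with called genes in red (3265 higher) and blue (2709 lower) and genes not called in grey. Nos2 is drawn at a fitted value that depends on the prior count, since all Naive libraries held 0 counts.

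Of 5 tested genes of LPS sensing, namely Tlr4, Ly96, Cd14 and the related pair Cd180 and Ly86, 2 were called higher and 2 lower. Of all genes 26.9% were higher and 22.3% lower. Tlr4 itself was low, at 9.07, 18.3 and 20.0 CPM in Naive and at 5.73, 4.29 and 5.87 CPM in LPS, and all LPS libraries lay below all Naive libraries (2.97-fold lower, -1.57 ± 0.27, adjusted p = 0.000727). Its relative Cd180, a surface protein of B cells, fell from 71.7, 84.7 and 90.0 CPM to 45.4, 21.4 and 31.1 CPM (-1.34 ± 0.23, adjusted p = 0.000945), while the Cd180 partner Ly86 rose from 67.6, 83.2 and 76.0 CPM to 145, 174 and 147 CPM (1.04 ± 0.27, adjusted p = 0.00853). Cd14 was just inside the threshold and its groups overlapped, with 22.3, 46.1 and 50.9 CPM against 36.6, 99.4 and 127 CPM (adjusted p = 0.0499), and Ly96 stayed between 2.73 and 4.50 CPM in all 6 libraries. Of the 16 adaptors and kinases behind the receptor, 3 were called higher and 1 lower, a smaller share than the 49.3% of all genes, with a median of 0.03 beside -0.01 over all genes. Under library size alone 1 was higher and 4 lower, and the medians of this list and of the 5 genes of LPS sensing changed sign, to -0.18 and -0.02. Without LPS replicate 1 the median of the adaptors and kinases was -0.04 and 2 were lower, and without Naive replicate 1 there were 3 lower. Myd88 was the adaptor with the largest rise (1.79-fold, adjusted p = 0.00243), and the adaptor Tirap was lower (1.45-fold, adjusted p = 0.0053). The call of Cd14 was lost without any of the 3 Naive libraries or LPS replicate 2 or 3 (adjusted p from 0.0559 to 0.197). With the B cell marker covariate Cd14 turned to -0.62, and Cd180, Ly86, Myd88 and Tirap were not called (adjusted p = 0.0957, 0.409, 0.378 and 0.423).

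The stretches upstream of 6 genes described below are shown as examples. These genes were picked by hand from the named genes and the NF-κB and interferon lists, so that all 6 hold a match is no test. The stretches come from RefSeq on build GRCm38.p6 and are written 5′ to 3′ on the strand of the gene, with the matched letters in capitals. The motifs searched were GGNNTTTCC for NF-κB, GAAANNGAA for the interferon response element and TGACTCA for AP-1, on both strands, where N is any base. The capitals mark the NF-κB and interferon letters and not those of AP-1. For Ifit3 only the interferon letters were used, and NF-κB matches were left out by choice. Nfkbia is at chr12:55492658-55492835, Cxcl1 at chr5:90891146-90891193, Cxcl10 at chr5:92349029-92349112, Isg15 at chr4:156200841-156200906, Ifit1 at chr19:34640770-34640823 and Ifit3 at chr19:34583364-34583445.
Nfkbia: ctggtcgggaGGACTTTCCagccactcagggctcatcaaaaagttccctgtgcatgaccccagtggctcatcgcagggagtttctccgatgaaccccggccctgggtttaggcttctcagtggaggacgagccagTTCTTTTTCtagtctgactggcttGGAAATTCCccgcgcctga
Cxcl1: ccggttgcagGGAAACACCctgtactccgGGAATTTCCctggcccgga
Cxcl10: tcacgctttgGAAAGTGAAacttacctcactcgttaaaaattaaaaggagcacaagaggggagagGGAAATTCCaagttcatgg
Isg15: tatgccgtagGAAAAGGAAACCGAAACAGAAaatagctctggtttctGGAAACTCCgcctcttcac
Ifit1: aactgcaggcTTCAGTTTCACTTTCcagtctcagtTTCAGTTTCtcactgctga
Ifit3: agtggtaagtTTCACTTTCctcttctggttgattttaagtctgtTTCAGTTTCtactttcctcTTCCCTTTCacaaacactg

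In these stretches Nfkbia held 2 NF-κB matches and 1 interferon match, Cxcl1 held 2 NF-κB matches, and Cxcl10 held 1 of each. Isg15 held 3 interferon matches that overlap and 1 NF-κB match, and Ifit1 and Ifit3 held 3 interferon matches each. NF-κB matches of Ifit3 were not counted, so its promoter is not shown to lack them. Over all 32851 promoters of 300 bases in the RefSeq table, 5.82% held the NF-κB letters and 8.56% the interferon letters, and in 18 promoters the letters of both overlapped. Those of AP-1 stood in 5.2% of all promoters, 10.8% of the promoters of the genes higher by at least 4-fold and 2.74% of those lower by at least 4-fold, and their overlap with the other letters was not counted. Over the 12251 promoters of the tested genes the shares were 6.09% for NF-κB, 7.45% for interferon and 3.76% for AP-1, and over the 3188 promoters of all genes called higher they were 7.18%, 9.82% and 3.7%. Among 166 promoters of genes called higher by at least 4-fold, 13.9% held the NF-κB letters and 28.9% the interferon letters, and among 146 promoters of genes called lower by at least 4-fold the shares were 6.85% and 8.22%. In the gene lists described below, 35.3% of 17 promoters of NF-κB subunits and inhibitors held the NF-κB letters. Of 25 promoters of type I interferon targets 44.0% held the interferon letters. These are counts of letters in a window and no measure of binding.

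Of 14 subunits and inhibitors of NF-κB, 10 were called higher and none lower, with a median of 0.87. With replicate numbers as pairs 11 were higher and 1 lower, and on library size alone 8 and 2. Under the B cell marker covariate 10 were higher and none lower, with a median of 0.52. Nfkbia, the inhibitor IκBα that NF-κB itself induces, was at 232, 212 and 223 CPM in Naive and at 571, 587 and 609 CPM in LPS (2.65-fold, 1.40 ± 0.08, adjusted p = 1.11e-06). Nfkbiz, a nuclear partner of the p50 subunit, rose 3.29-fold, from 107, 105 and 114 CPM to 386, 350 and 337 CPM (adjusted p = 3.39e-07). Nfkb1, which encodes p50 and its precursor, rose from 441, 446 and 442 CPM to 970, 1006 and 965 CPM (2.21-fold, adjusted p = 1.11e-06). For these genes the 3 LPS libraries, replicate 1 included, lay close together and far above Naive. Rela, the p65 subunit, was not called (0.21 ± 0.10, adjusted p = 0.102), and it was called without Naive replicate 1 (adjusted p = 0.0359) and with pairs (adjusted p = 0.00334).

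Of 16 inhibitors that limit inflammatory signalling 7 were called higher and none lower, beside 26.9% and 22.3% of all genes, with a median of 0.88, and 11 were higher and 1 lower when replicate numbers were used as pairs. The ubiquitin-editing enzyme Tnfaip3 (A20) rose from 438, 365 and 403 CPM to 782, 813 and 792 CPM (0.98 ± 0.09, adjusted p = 1.4e-05), and the RNase Zc3h12a rose 2.23-fold (adjusted p = 2.57e-05). Il1rn, the antagonist of the interleukin-1 receptor, was at 59.9, 172 and 182 CPM and at 266, 638 and 588 CPM (adjusted p = 0.00808). Replicate 1 was the lowest of its group on both sides for Il1rn, and the LPS libraries still lay above all Naive libraries. Under the B cell marker covariate 3 of the 16 were called higher, and Il1rn was not called (adjusted p = 0.735).

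Of 20 tested inflammatory cytokines, 14 were called higher and none lower, with a median of 1.76. Tnf rose 4.07-fold, from 16.97, 15.1 and 16.2 CPM to 58.1, 65.2 and 73.4 CPM (2.02 ± 0.13, adjusted p = 2.13e-06). The anti-inflammatory cytokine Il10 rose 3.59-fold, from 10.04, 11.4 and 13.1 CPM to 40.1, 41.2 and 42.6 CPM (1.84 ± 0.16, adjusted p = 8.35e-06). Ebi3, a subunit of interleukins 27 and 35, went from 9.41, 11.3 and 11.7 CPM to 44.4, 41.4 and 36.6 CPM (adjusted p = 5.48e-06). In these 3 genes LPS replicate 1 behaved like replicates 2 and 3.

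In other cytokines LPS replicate 1 was far below its partners. Ifng, at chr10:118441046-118445892, was at 1.80, 2.35 and 3.69 CPM in Naive and at 8.69, 300 and 260 CPM in LPS (6.19 ± 1.25, adjusted p = 0.00234), and it was not called by limma-voom (adjusted p = 0.107). Il1b was at 53.5, 80.0 and 88.1 CPM and at 157, 650 and 733 CPM (2.80 ± 0.47, adjusted p = 0.000781), Il1a at 3.61, 5.24 and 7.81 CPM and at 24.0, 102 and 127 CPM (3.93 ± 0.55, adjusted p = 0.000233). Csf3, the growth factor of neutrophils, was at or under 0.195 CPM in Naive and reached 1.84, 9.33 and 10.1 CPM in LPS (adjusted p = 0.000315). Every LPS library was above every Naive library for these genes, with LPS replicate 1 the lowest each time. Given the B cell marker covariate 6 of the 20 cytokines were called higher and none lower, Ifng was at -0.05 and Il1b at 0.78 (adjusted p = 0.974 and 0.234).

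Chemokines, which recruit leukocytes, rose as well, with 9 of 14 called higher, none lower and a median of 1.37. Cxcl10, a chemokine for activated T cells at chr5:92346638-92348889, was at 5.56, 9.46 and 11.4 CPM in Naive and at 201, 855 and 706 CPM in LPS (67.3-fold, 6.07 ± 0.87, adjusted p = 0.000279). The neutrophil chemokine Cxcl2 rose 5.78-fold, from 18.7, 27.9 and 25.7 CPM to 107, 141 and 169 CPM (adjusted p = 3.43e-06), and its relative Cxcl1 rose from 0.195, 0.156 and 0.726 CPM to 3.48, 6.22 and 10.8 CPM (4.21 on the log2 scale, and 5.19 without Naive replicate 3, adjusted p = 0.000254). Ccl3 rose 4.23-fold (adjusted p = 8.35e-06), while Ccl2 stayed at or under 13.6 CPM in all 6 libraries and was not called (-2.32, adjusted p = 0.144), but was called lower without Naive replicate 1 (-2.90, adjusted p = 0.0446) and with pairs (adjusted p = 0.00395). Under the B cell marker covariate 4 of the 14 chemokines were called higher and 3 lower.

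Of 14 genes for enzymes and antimicrobial proteins known from LPS-treated myeloid cells, 10 were called higher and none lower, with a median of 1.56, which was 1.56 also with Nos2 set to its lower bound. With pairs 10 were higher and 2 lower, and on library size alone 9 and 2. Nos2, the inducible nitric oxide synthase at chr11:78920787-78960254, had no counts in the Naive libraries and 2.25, 19.8 and 11.98 CPM in LPS, which was at least 60.4-fold higher against a floor of 3 counts per library. The acute-phase protein gene Saa3, at chr7:46711998-46715700, was at 0.293, 0 and 0 CPM and at 5.01, 31.8 and 33.9 CPM (7.55 ± 1.06, adjusted p = 0.000255). The Naive mean of Saa3, 0.0975 CPM, was under the level of 3 counts per library, so its fold is not dependable. Its Naive counts all came from replicate 1, and the fitted value without that library (11.34) depends on the prior count. Acod1, which makes itaconate, rose from 47.8, 45.9 and 45.4 CPM to 316, 401 and 376 CPM (7.86-fold, adjusted p = 1.85e-06), and the iron-binding lipocalin Lcn2 from 22.8, 18.4 and 12.8 CPM to 161, 158 and 179 CPM (9.19-fold, adjusted p = 2.69e-05). Ptgs2, an enzyme of prostaglandin E2 synthesis, rose from 6.44, 10.5 and 11.7 CPM to 35.4, 167 and 170 CPM. Ptges, another such enzyme that is not among the 14, rose from at most 0.968 CPM to 15.7, 72.5 and 75.1 CPM (6.09 ± 0.66, adjusted p = 4.23e-05). Given the B cell marker covariate 5 of these 14 genes were called higher and 2 lower, with a median of -0.06, and Ptgs2 was not called (adjusted p = 0.227).

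**Figure D3:**
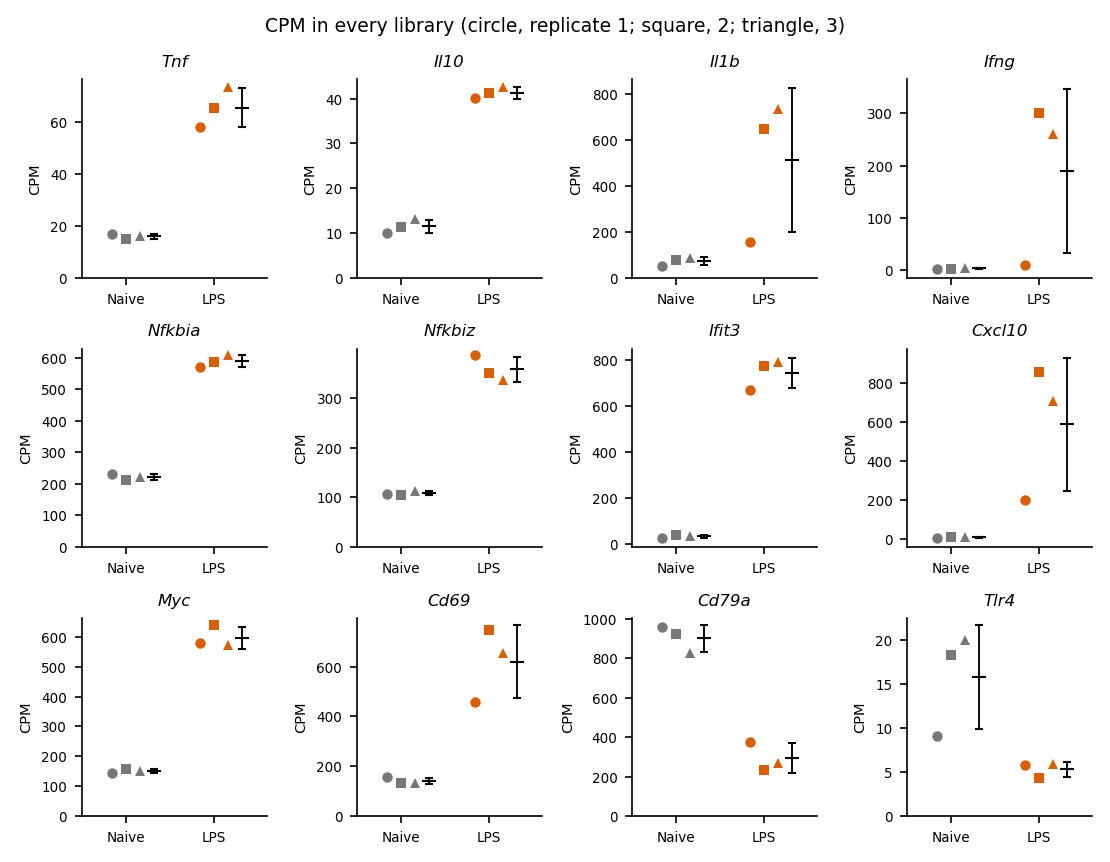
CPM in each library for 12 genes (grey, Naive; orange, LPS; circle, square and triangle for replicates 1, 2 and 3), with the mean and SD of each group as a dash with bars. LPS replicate 1 lies with its group for Tnf, Il10, Nfkbia and Nfkbiz and far below it for Il1b, Ifng and Cxcl10.

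Of 29 tested targets of type I interferon, 28 were called higher, with a median of 3.08, and none was called lower. Ifit3, an antiviral protein of the IFIT family at chr19:34583531-34588731, rose 21.6-fold, from 27.6, 38.1 and 37.9 CPM to 670, 776 and 790 CPM (4.43 ± 0.62, adjusted p = 0.000248). Its near copy Ifit3b rose 25.3-fold, and reads that match both may have been divided between them. Isg15, a ubiquitin-like modifier, went from 6.87, 17.4 and 15.9 CPM to 187, 332 and 305 CPM (adjusted p = 0.00127), and Irf7, a regulator of interferon genes, rose 8.23-fold (adjusted p = 0.00109). The smallest rise called was that of Irf9, part of the interferon-activated transcription factor ISGF3 (1.82-fold, 0.86 ± 0.11, adjusted p = 9.05e-05). Ifnb1, the type I interferon of the classic LPS response, did not pass the filter on low counts.

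Targets of interferon gamma rose in 18 of 19 cases, with a median of 1.90. Gbp2, a guanylate-binding GTPase, was at 208, 244 and 265 CPM and at 697, 2100 and 1837 CPM (6.46-fold, 2.69 ± 0.38, adjusted p = 0.000261). Irf1, a transcription factor of this response, was at 239, 267 and 310 CPM and at 389, 1039 and 998 CPM (adjusted p = 0.00227), and the PD-1 ligand Cd274 rose 3.72-fold (adjusted p = 0.000462). Icosl, a ligand of the costimulatory receptor ICOS, was the member called lower, from 62.7, 49.0 and 44.8 CPM to 38.4, 22.2 and 25.5 CPM (adjusted p = 0.00368). The summed level of the list was 4644 CPM in LPS replicate 1 and 10938 and 9986 CPM in LPS replicates 2 and 3, all above the 1706 to 2309 CPM of Naive. Under the B cell marker covariate, 8 of the 29 type I targets and 6 of the 19 IFNg targets were called higher, and the medians were 1.93 and 0.79. Isg15, Irf7, Irf1 and Icosl were not called in that fit (adjusted p = 0.063, 0.076, 0.564 and 0.416).

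Both branches of antigen presentation changed, in opposite directions. Of 16 genes of MHC class I presentation, 15 were called higher and none lower, with a median of 0.82. The peptide transporter Tap1 was at 372, 396 and 407 CPM and at 684, 1122 and 1055 CPM (2.44-fold, adjusted p = 0.000396), its editor Tapbp rose 2.70-fold (adjusted p = 5.91e-05), and the class I chain H2-K1 rose 1.35-fold (adjusted p = 0.000616). Of 10 genes of MHC class II presentation, none was called higher and 9 were called lower, with a median of -0.87. The invariant chain Cd74, among the most abundant transcripts, fell from 5272, 5738 and 5178 CPM to 3904, 3695 and 3572 CPM (-0.54 ± 0.06, adjusted p = 2.67e-05). H2-Ob, a B cell inhibitor of class II loading, fell from 285, 258 and 232 CPM to 82.4, 51.0 and 51.1 CPM (4.21-fold lower, adjusted p = 5.99e-05), and Ciita, the master regulator of class II genes, was 1.63-fold lower (adjusted p = 0.000649). CD8 T cells of the mouse are known to lack class II molecules. The sum of the B cell markers was lower in LPS and 9 of 16 macrophage and monocyte markers were called lower, and the part of either in these falls was not tested beyond the fit with the B cell marker covariate. In that fit 6 of the 10 class II genes were called lower, with a median of -0.70, and 6 of the 16 class I genes were called higher, with a median of 0.30. Ciita and H2-K1 were not called there (adjusted p = 0.057 and 0.0877).

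Costimulatory ligands of antigen-presenting cells rose in 6 of 11 cases and 1 was lower, with a median of 0.69. The median was 0.43 without LPS replicate 1 and 0.46 without Naive replicate 2. Cd40, a receptor on B cells and myeloid cells, went from 58.4, 68.7 and 69.4 CPM to 237, 420 and 366 CPM (5.21-fold, adjusted p = 3.53e-05), and the adhesion molecule Icam1 from 141, 112 and 130 CPM to 339, 417 and 406 CPM (3.04-fold, adjusted p = 3.66e-06). Cd86 was at 141, 173 and 162 CPM and at 206, 392 and 345 CPM (adjusted p = 0.00742). The BAFF-family receptor Tnfrsf13b, known from activated and marginal zone B cells, is not one of these 11 ligands. It rose from 92.3, 110 and 105 CPM to 226, 222 and 208 CPM (adjusted p = 7.6e-06). Of 7 markers of activated B cells and plasma cells it was the only one called higher, and 3 were lower. All 4 genes had higher values in each LPS library than in any Naive library, and Cd86 was not called under the B cell marker covariate (adjusted p = 0.986).

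Genes of the T cell receptor complex and its proximal signalling were mostly lower. Of 17, 12 were called lower and 1 higher, with a median of -0.39. The largest fall was that of Cd5, an inhibitor of receptor signalling, from 58.7, 41.7 and 43.5 CPM to 29.5, 20.1 and 21.8 CPM (2.02-fold lower, -1.02 ± 0.21, adjusted p = 0.00228). The kinase Zap70 was 1.22-fold lower (adjusted p = 0.0142), a call lost without Naive replicate 3 (adjusted p = 0.0502). On library size alone 14 were called lower and none higher. Given the B cell marker covariate none of the 17 was called.

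Genes of resting and recirculating T cells were lower in 6 of 20 cases and higher in 1, with a median of -0.45. The 7 called are a smaller share than the 49.3% of all genes. With replicate numbers as pairs 14 were lower and 3 higher, and on library size alone 15 were lower. The number lower was 11 without LPS replicate 1, 3 without Naive replicate 3 and 1 without Naive replicate 1, LPS replicate 2 or LPS replicate 3, and the median was -0.28 without Naive replicate 1. Under the B cell marker covariate the median was 0.06, with 2 lower. Btg2, which restrains proliferation, fell from 293, 280 and 281 CPM to 174, 135 and 135 CPM (1.92-fold lower, adjusted p = 5.97e-05). S1pr1, the receptor that lets T cells leave lymphoid organs, was at 527, 429 and 417 CPM and at 322, 232 and 245 CPM (adjusted p = 0.0391), a call lost without any Naive library or LPS replicate 2 or 3 (adjusted p from 0.0578 to 0.122), and its sign changed under the B cell marker covariate (0.018). Ccr7, the receptor for homing to lymph nodes, moved the other way, from 505, 469 and 440 CPM to 816, 770 and 743 CPM (0.72 ± 0.07, adjusted p = 1.87e-05). The interleukin-7 receptor Il7r was at 331, 265 and 249 CPM and at 247, 152 and 150 CPM, which was not called in the main test (adjusted p = 0.0573) and was called with pairs (adjusted p = 0.000581) and without LPS replicate 1 (adjusted p = 0.0104).

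Of 22 markers of T cell activation 7 were called higher and 3 lower, with a median of 0.30, beside 26.9% and 22.3% of all genes, so that the share called is near that of all genes. With pairs 12 were higher, and on library size alone the median was 0.09. Cd69, an early activation marker of lymphocytes, rose from 155, 132 and 133 CPM to 459, 746 and 653 CPM (4.42-fold, adjusted p = 1.48e-05), Il2ra, the high-affinity chain of the interleukin-2 receptor, rose 6.48-fold (adjusted p = 3.51e-05), and the transcription factor Batf from 39.2, 45.0 and 46.5 CPM to 188, 248 and 243 CPM (5.21-fold, adjusted p = 1.86e-06). Egr2, an immediate target of T cell receptor signalling, fell from 19.4, 24.8 and 28.2 CPM to 8.18, 6.89 and 7.56 CPM (-1.68 ± 0.18, adjusted p = 3.79e-05), and Egr3 was 3.91-fold lower (-1.97, adjusted p = 0.024), which became -1.35 without LPS replicate 3 and was not called without Naive replicate 1 (adjusted p = 0.0514). The nuclear receptors Nr4a1, Nr4a2 and Nr4a3, also induced through the T cell receptor, were not called (log2 fold changes 0.50, 0.08 and 0.33, adjusted p = 0.106, 0.813 and 0.0989), although Nr4a1 and Nr4a3 were called with pairs (adjusted p = 0.000323 and 0.0347) and Nr4a1 without Naive replicate 1 (adjusted p = 0.0214).

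Cytotoxic effector genes were called higher in 6 of 22 cases and lower in 3, with a median of 0.40, beside 26.9% and 22.3% of all genes, so that the share called is no higher than that of all genes. With pairs 12 were higher and 4 lower, on library size alone the median was 0.19, and limma-voom called 3 higher. Without LPS replicate 1 there were 12 higher and 1 lower, and the number lower was 1 also without Naive replicate 2 or LPS replicate 2. Granzyme B (Gzmb) was at 13.4, 24.1 and 29.3 CPM in Naive and at 35.3, 223 and 187 CPM in LPS (adjusted p = 0.0258). Tbx21, the transcription factor T-bet, was at 15.9, 17.2 and 23.8 CPM and at 15.0, 167 and 135 CPM (adjusted p = 0.0109). The groups overlapped for Tbx21, since LPS replicate 1 was no higher than Naive. Prf1, the pore-forming protein of cytotoxic granules, was at or under 4.96 CPM in all 6 libraries and was not called (adjusted p = 0.401). It was called higher without LPS replicate 1 (1.08, adjusted p = 0.0135) and lower under the B cell marker covariate (-2.12, adjusted p = 0.0483). Gzmb lost its call without any Naive library or LPS replicate 2 or 3 (adjusted p from 0.0523 to 0.0872) and Gzmb and Tbx21 lost it in limma-voom (adjusted p = 0.0838 and 0.079). Given the B cell marker covariate 1 of the 22 was called higher and 3 lower, and Gzmb and Tbx21 were at -0.87 and -0.97 without a call.

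The transcription factor Myc went from 144, 159 and 152 CPM to 579, 640 and 571 CPM (3.94-fold, 1.98 ± 0.15, adjusted p = 5.12e-06). Of 20 genes of ribosome biogenesis, 19 were called higher, with a median of 1.54, and Nolc1, at or under 4.42 CPM, was not called (adjusted p = 0.215) except without Naive replicate 3 (adjusted p = 0.0426). Rrp9, a protein of the U3 snoRNP, rose from 54.8, 55.8 and 54.5 CPM to 175, 203 and 182 CPM (3.39-fold, adjusted p = 1.11e-06), and the nucleolar protein nucleolin (Ncl) from 196, 232 and 223 CPM to 617, 731 and 635 CPM (adjusted p = 1.47e-05). The 3 LPS libraries lay close together for these genes, and under the B cell marker covariate 19 of the 20 were called higher, with a median of 1.28.

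Of 18 glycolysis genes, 13 were called higher and 1 lower, with a median of 0.44, against 7 and 3 on library size alone and 3 and 1 under the B cell marker covariate. Hk2, an inducible hexokinase, rose 4.50-fold, from 14.7, 18.5 and 19.4 CPM to 68.2, 87.8 and 79.6 CPM (adjusted p = 4.21e-05). Of 10 amino acid transporters 6 were higher and none lower, led by Slc1a4 (3.58-fold, adjusted p = 2.75e-06) and the leucine transporter Slc7a5 (3.27-fold, adjusted p = 2.39e-06). Of 16 genes of cell cycle entry 8 were higher and none lower, which as a share called is near the 49.3% of all genes, and 4 were higher under the B cell marker covariate. Ccnd2, cyclin D2, rose from 127, 189 and 205 CPM to 1064, 1611 and 1354 CPM (7.73-fold, adjusted p = 7.04e-05), whereas the proliferation marker Mki67 was at 79.5, 85.6 and 105 CPM and at 74.9, 82.7 and 94.0 CPM (adjusted p = 0.605). Of 15 cholesterol synthesis genes 9 were higher and 1 lower, with a median of 0.35, and 2 were higher and 1 lower under library size alone, and 5 higher without Naive replicate 1.

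Regulators of cell death were called higher in 14 of 21 cases and lower in 1, with a median of 0.72. The survival factor Bcl2l1 (Bcl-xL) rose from 37.8, 50.2 and 52.9 CPM to 208, 215 and 205 CPM (4.47-fold, 2.16 ± 0.19, adjusted p = 1.2e-05). Cflar, an inhibitor of caspase-8, rose from 145, 147 and 160 CPM to 402, 489 and 444 CPM (2.95-fold, adjusted p = 3.43e-06). The members called higher also included Bax, which promotes death (1.79-fold, adjusted p = 0.000763), and the death receptor Fas (2.12-fold, adjusted p = 9.73e-05). Members that promote death were not counted apart. The member called lower was Mcl1, another survival factor (1.15-fold, adjusted p = 0.028), which was not called without Naive replicate 2 or 3 or LPS replicate 2 or 3 (adjusted p from 0.0812 to 0.0906). Under the B cell marker covariate 9 of the 21 were called higher and none lower, and Bax was not called (adjusted p = 0.122).

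The 8 largest rises in CPM were those of Hspa8, Rnf213, Hsp90ab1, Eef1a1, Npm1, B2m, Gbp2 and Samhd1, of which Gbp2 is described above. Hspa8, a constitutive Hsp70 chaperone, rose from 2212, 2283 and 2460 CPM to 5510, 6881 and 6436 CPM (2.71-fold, adjusted p = 9.26e-06), and Hsp90ab1 rose 2.30-fold (adjusted p = 3.08e-06). Rnf213, a ubiquitin ligase induced by interferon, rose from 334, 472 and 451 CPM to 2719, 3087 and 2918 CPM (6.94-fold, adjusted p = 0.000862). Npm1 (nucleophosmin, 2.53-fold), Samhd1 (a dNTP hydrolase, 2.97-fold), B2m (β2-microglobulin, 1.47-fold) and the translation factor Eef1a1 (1.14-fold) followed, and the last of these was called on 12680, 12404 and 12718 CPM against 14246, 14260 and 14438 CPM (adjusted p = 0.000499). The sign of Eef1a1 changed when libraries were scaled by total counts alone (-0.03), and that of B2m changed under the B cell marker covariate (-0.01), where Rnf213 and Samhd1 were not called (adjusted p = 0.0533 and 0.297). Of 10 genes of stress and dissociation, 7 were called higher, with a sum of 3966 to 4389 CPM in Naive and 9365 to 11568 CPM in LPS. The heat shock gene Hspa1a, which marks dissociation stress, was at 16.04, 4.14 and 5.21 CPM and at 15.8, 8.49 and 12.8 CPM and was not called (0.52, adjusted p = 0.445), but was called without Naive replicate 1 (1.39, adjusted p = 0.0387) and with pairs (adjusted p = 0.0217).

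The largest absolute falls were in Cd74, the lysosomal saposin precursor Psap (812, 1507 and 1546 CPM against 478, 474 and 501 CPM, -1.41 ± 0.26 on the log2 scale, adjusted p = 0.00133) and the class II chain H2-Aa (-0.78 ± 0.09, adjusted p = 5.24e-05). The actin-binding genes Tmsb4x and Coro1a followed with -0.47 ± 0.09 and -0.80 ± 0.08 (adjusted p = 0.00198 and 2.11e-05), and so did Cd79b, from 800, 848 and 754 CPM to 343, 137 and 173 CPM (3.68-fold lower, adjusted p = 0.000357), and Arhgap45, a GTPase-activating protein (adjusted p = 0.0164). Arhgap45 was not called without Naive replicate 1, LPS replicate 2 or LPS replicate 3 (adjusted p = 0.0651, 0.0668 and 0.0574) or under the B cell marker covariate (adjusted p = 0.982).

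Some of the genes with the largest fold decrease were at or near 0 counts in LPS. Msantd4 was at 2.10, 5.79 and 8.78 CPM in Naive and had no counts in LPS, at least 20.8-fold lower against a floor of 3 counts per library, and it was not called under the B cell marker covariate (adjusted p = 0.254). Sipa1l2 was at 11.4, 4.22 and 8.41 CPM in Naive and at 0, 0 and 0.0804 CPM in LPS, which is 1 count. Amy2a5, a pancreatic amylase of a family of near-identical copies and so uncertain, was at 50.9, 25.9 and 49.1 CPM and at 0.613, 1.09 and 0.241 CPM (-6.01, adjusted p = 0.00382). The fitted value of Amy2a5 was -6.66 without LPS replicate 2, and limma-voom and the B cell marker covariate left it uncalled (adjusted p = 0.13 and 0.0615).

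Others of the largest decreases were those of Lpl (lipoprotein lipase), from 32.6, 80.1 and 71.2 CPM to 3.99, 3.36 and 5.23 CPM (-3.86 ± 0.35, adjusted p = 1.58e-05), Mmp19, a matrix metalloproteinase, from 23.1, 47.8 and 45.0 CPM to 0, 5.04 and 5.31 CPM (-3.43 ± 0.64, adjusted p = 0.00143), and Igf1, an insulin-like growth factor, from 4.14, 10.4 and 8.53 CPM to 0.716, 0.841 and 0.563 CPM (-3.42 ± 0.40, adjusted p = 5.97e-05). Ccl24, a chemokine for eosinophils, was lower on average (-3.77 ± 0.86), but Naive replicate 1 held 1.90 CPM, close to LPS, and limma-voom did not call it (adjusted p = 0.204). Rab3il1 was also among the largest decreases (-3.47 ± 0.73, adjusted p = 0.00272). Of 16 macrophage and monocyte markers 9 were called lower and 2 higher, with a median of -1.08. Csf1r, the receptor for the macrophage growth factor, fell from 56.8, 128 and 142 CPM to 21.5, 27.3 and 30.2 CPM (4.12-fold lower, adjusted p = 0.00186), and the complement gene C1qc was 4.42-fold lower (adjusted p = 0.000502). The summed level of the 16 did not separate the groups, with 735 to 1350 CPM in Naive and 795 to 1374 CPM in LPS. Its most abundant member Mpeg1 was at 252, 472 and 460 CPM in Naive and at 428, 803 and 664 CPM in LPS (adjusted p = 0.131, and 0.000158 with pairs). Another member, Ly6c2, rose from 33.3, 45.4 and 38.4 CPM to 115, 192 and 157 CPM (adjusted p = 0.00239), and the cells that made its RNA are not known. Given the B cell marker covariate 12 of the 16 were called lower and none higher, and Ly6c2 was not called (adjusted p = 0.243).

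To see which changes set LPS apart from the other stimuli, LPS was compared with aCD3 and with IFNg directly. Against aCD3 2351 genes (19.4%) were called, 1183 (9.76%) higher and 1168 (9.64%) lower in LPS. This count was 4202 with replicate numbers as pairs, 3582 without replicate 1 of all groups, 3631 with the B cell marker level as a covariate and 1440 in a fit of the 6 libraries alone, and it was 1429, 1508 and 1558 without LPS replicate 2, LPS replicate 3 or aCD3 replicate 3. Against IFNg 4895 genes (40.4%) were called, 2713 (22.4%) higher and 2182 (18.0%) lower. In all, 628 genes were called higher in LPS than in each of Naive, aCD3 and IFNg, and 530 were called lower than in each.

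The 8 genes of the 628 with the largest rise over Naive were chosen by that rise. Saa3 had at most 0.212 CPM in aCD3 and 0.531 CPM in IFNg. Ptges stayed at 1.30, 1.41 and 1.29 CPM in aCD3 and at 1.86, 0.354 and 1.27 CPM in IFNg, against 15.7, 72.5 and 75.1 CPM in LPS (log2 difference 5.35 ± 0.62 from aCD3 and 5.53 ± 0.65 from IFNg, adjusted p = 0.000287 and 7.62e-05). Edn1, the endothelin precursor, was at 4.40, 22.3 and 20.3 CPM in LPS and at or under 3.41 CPM in the other 9 libraries. Epb41l4b, a membrane skeleton protein (8.49, 34.3 and 23.8 CPM in LPS), and Schip1 (2.15, 6.64 and 6.35 CPM) had the same pattern, and Csf3, Cxcl1 and Il1a made up the rest of the 8. LPS replicate 1 was the lowest LPS library for each of these 8 genes.

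Of all genes tested, 5.87% were called higher in LPS than in both aCD3 and IFNg and 4.91% lower than in both. Among the 14 NF-κB genes 7 were higher than in both, among the 20 cytokines 9, among the 21 cell death genes 8, among the 14 chemokines 6 and among the 10 genes of stress and dissociation 5. The number of chemokines was 3 without LPS replicate 2 or 3, and that of stress and dissociation genes 2 without aCD3 replicate 1 or LPS replicate 2 or 3. Of the 17 genes of the T cell receptor complex 9 were lower than in both. Il10 was at 8.85, 11.3 and 10.6 CPM in aCD3 and at 10.04, 14.2 and 15.1 CPM in IFNg, against 40.1, 41.2 and 42.6 CPM in LPS (2.02 ± 0.16 and 1.66 ± 0.16, adjusted p = 1.77e-05 and 1.52e-05). Nfkbia was at 258, 234 and 226 CPM in aCD3 and at 259, 223 and 252 CPM in IFNg (1.30 ± 0.08 and 1.27 ± 0.08, adjusted p = 3.9e-06 and 1.48e-06), and Batf at 39.5, 53.5 and 53.6 CPM and at 35.5, 39.98 and 43.4 CPM (2.22 ± 0.15 and 2.52 ± 0.15, adjusted p = 8.83e-06 and 1.37e-06). For Il10, Nfkbia and Batf the LPS libraries lay above the other 9 without overlap.

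Of the 29 type I interferon targets 1 was called higher than in aCD3, with a median log2 difference of 0.88, and none was called in either direction against IFNg, with a median of -0.07. With replicate numbers as pairs, 19 of the 29 were called higher than in aCD3 and none lower, and 1 was lower than in IFNg. Without replicate 1 of all groups 20 were higher than in aCD3, and 1 was higher and 10 were lower than in IFNg. The median against aCD3 was 0.47 without aCD3 replicate 1, and the median against IFNg ran from -0.33 without IFNg replicate 1 to 0.16 without IFNg replicate 2. Ifit1 was at 62.1, 360 and 305 CPM in aCD3, at 278, 828 and 805 CPM in IFNg and at 616, 816 and 783 CPM in LPS (log2 difference from IFNg 0.21 ± 0.57, adjusted p = 0.793). Of the 19 IFNg targets 9 were higher and 1 lower than in aCD3, and 6 were lower and none higher than in IFNg. With pairs 14 were higher than in aCD3 and 13 lower than in IFNg. The 9 became 3 or 4 without aCD3 replicate 1 or 3 or LPS replicate 2 or 3 and 14 without LPS replicate 1, it was 1 in a fit of the LPS and aCD3 libraries alone, and the 6 became 3 without IFNg replicate 2 or LPS replicate 2. Gbp2 reached 3861, 4183 and 4148 CPM in IFNg against 697, 2100 and 1837 CPM in LPS (-1.40 ± 0.36, adjusted p = 0.011).

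Genes of the T cell receptor complex were mostly lower in LPS than in aCD3. Of the 17 genes of the receptor complex 14 were lower in LPS than in aCD3 and 11 lower than in IFNg, and the 11 became 7 without IFNg replicate 1 or LPS replicate 2. Zap70 was at a mean of 227 CPM in aCD3 (-1.76 ± 0.08, adjusted p = 1.75e-06), and Cd5 at a mean of 141 CPM (-2.57 ± 0.21, adjusted p = 2.76e-05). Of the 22 markers of T cell activation 12 were lower and 3 higher than in aCD3, beside 9.64% and 9.76% of all genes. The checkpoint receptor Lag3 and the chemokine Xcl1 were lower than in aCD3 by 2.22 and 3.30 on the log2 scale (adjusted p = 0.00024 and 2.77e-05). Of the 20 genes of ribosome biogenesis 19 were higher than in IFNg and 7 higher than in aCD3, beside 22.4% and 9.76% of all genes, and none was lower, with median log2 differences of 1.42 and 0.28. The median of 0.28 was 0.18 without aCD3 replicate 1, and the 7 became 13 with pairs and 2 or 3 without aCD3 replicate 1 or 3 or LPS replicate 2 or 3.

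**Figure D4:**
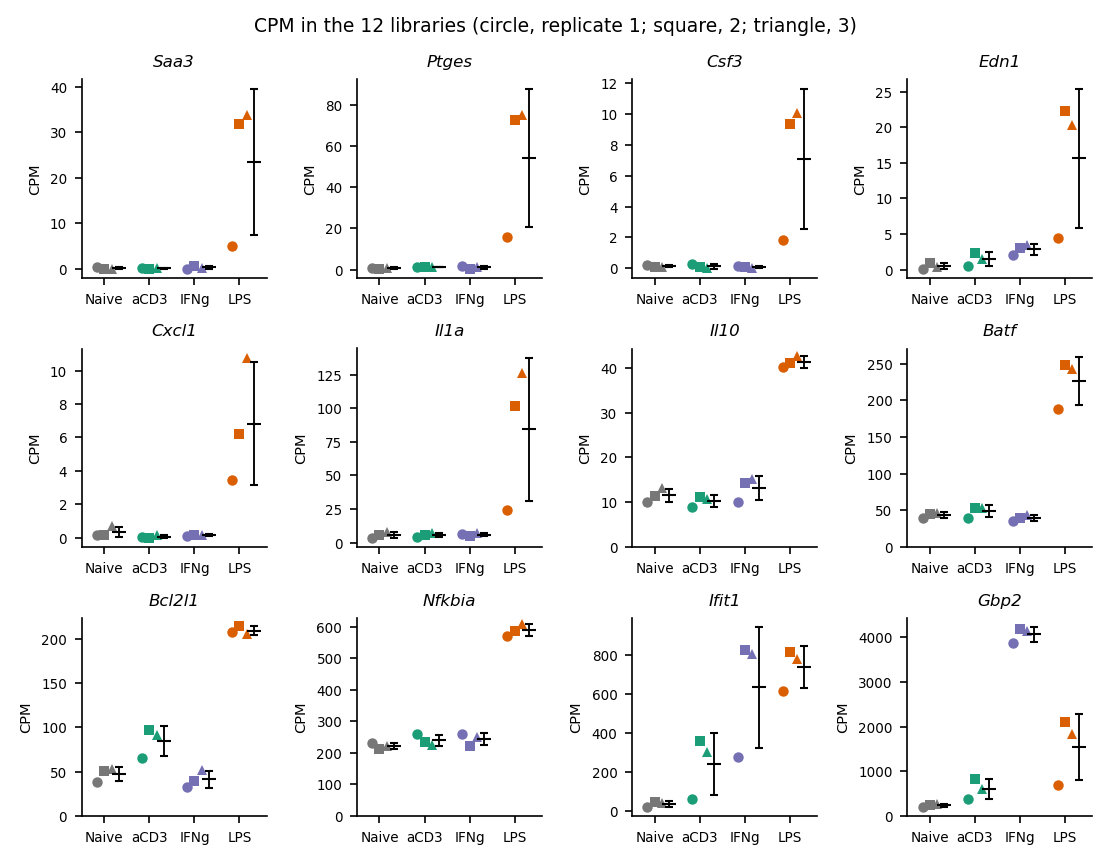
CPM in the 12 libraries for 12 genes in the Naive, aCD3, IFNg and LPS groups (circle, square and triangle for replicates 1, 2 and 3), with the mean and SD of each group as a dash with bars. The LPS libraries lie above the other 9 for Il10, Batf and Nfkbia, whereas for Gbp2 the IFNg libraries, at 3861 to 4183 CPM, lie highest.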

How the data were processed

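The authors sequenced mRNA from bead-captured spleen CD8 T cells and deposited a single table of estimated counts, with genes by symbol and libraries as columns, made by pseudo-alignment with kallisto to mouse build mm10 (its version and transcript annotation are not given in the sources used here). The submitters' processing notes also name DESeq2 1.24.0. The values were not scaled to a common depth. Here they were rounded to whole numbers. Total counts per library ran from 10196200 to 27610200 over the 12 libraries, and all columns were matched to a sample by their labels.

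Genes were filtered with filterByExpr (12122 of 20778 kept) and tested with the edgeR 4.0.16 quasi-likelihood test (robust, TMM scaling, R 4.3.3), with all 12 libraries in 1 fit so that the 4 groups shared 1 estimate of the spread. The contrasts were LPS minus Naive, LPS minus aCD3 and LPS minus IFNg. Calls had a Benjamini-Hochberg adjusted p under 0.05 over all tested genes, values after ± are standard errors of log2 fold changes, and folds are the fitted ones. Against a group with 0 counts throughout, the fold was bounded with 3 counts per library. CPM per kb used the exon length of GENCODE M21 (GRCm38), which held 12079 of the 12122 genes and gave the gene coordinates. Promoters of 300 bases, 250 before the start and 50 after it, came from RefSeq on GRCm38.p6.

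Genes were named by rule from the calls in which the groups did not overlap, the higher group averaged 5 CPM or more and the symbol was not that of a predicted gene: the 10 largest increases and decreases in log2 fold change, the 8 largest in CPM, the 8 largest increases also called above aCD3 and IFNg, and the leading and defining members of each list. A few list members were added after their values were seen. Some genes that this rule names are not reported here. The members and lists were chosen with earlier results of these data known.

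Alternatives were the replicate number as a block, RLE factors, library size alone, DESeq2 1.42.0, limma-voom 3.58.1, no count filter, only the libraries of the 2 groups, the mean log2 CPM of 15 B cell markers as a covariate, and each library left out. Leaving out replicate 1 of all groups was added after seeing the data. The replicate numbers pair the samples by the rule that every pair of same-numbered libraries deviates together: the correlations of their deviations from the group means, across genes, were 0.12 to 0.4 (LPS with Naive 0.3, 0.19 and 0.15). No label says what a number stands for. The steps were tested on simulated data with known fold changes, as many up as down, and the same spread for all genes. The simulation held no differences between replicates or in cell types, so it does not bear on the choice of scaling or on replicate 1.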

Additional observations from a re-analysis of the deposited data

How the results depend on the processing

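The count for LPS against Naive, 5974, lay between 5614 and 7207 with the replicate number as a block, other size factors, other tools, no count filter or only the 6 libraries, and between 4760 and 6144 without single libraries. Scaling by library size alone gave 2140 higher and 4380 lower, and the B cell marker covariate gave 2557, 1704 higher and 853 lower. The count for LPS against IFNg stayed within 1.5 times of 4895 under every alternative run. That for LPS against aCD3, 2351, did not. It was 4202 (2201 higher, 2001 lower) with the replicate block, 3631 (1832 and 1799) with the covariate, 1440 (675 and 765) from 2 groups and 3582 (1839 and 1743) without replicate 1 of all groups, and library size alone left 766 higher. Without single libraries it ran from 1429 to 2590, with 710 to 1294 higher and 719 to 1296 lower. The causes were not tested, beyond the smaller number of libraries in some fits.

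Of 145 results on named genes, 90 kept their direction and their side of the threshold under every alternative. Pairing by replicate number ended no call and gave 7 more (Ccl2, Hspa1a, Il7r, Mpeg1, Nr4a1, Nr4a3 and Rela), and it changed no other call. Leaving out single libraries turned no direction, ended a call in 36 fits and added one in 9. The covariate ended 32 further calls and added 3 in the same direction. It turned the sign of B2m (-0.015), Cd14 (-0.62), Gzmb (-0.87), Ifng (-0.050), S1pr1 (0.018), Tbx21 (-0.97) and, for LPS against Naive, Xcl1 (0.77 to -0.27), and it called Prf1 lower (-2.12). Eef1a1 was at -0.025 on library size alone. The cause of these changes was not tested, and the covariate itself differed between the groups.

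With 3 libraries a group and 10196200 counts in the smallest, 3 counts correspond to between 0.146 and 0.307 CPM in the 6 libraries, and genes near that level have no dependable fold.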

Other observations

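Counts for further marker lists are to be read against the 26.9% of all genes called higher and the 22.3% called lower between LPS and Naive. Of 4 markers of CD4 T cells 3 were called lower and none higher, with a median log2 fold change of -0.48 beside -0.01 over all genes. Foxp3, the transcription factor of regulatory T cells, fell from 23.4, 28.2 and 26.7 CPM in Naive to 15.9, 19.6 and 19.9 CPM in LPS (adjusted p = 0.0147, and 0.0523 without Naive replicate 2). Without that library 1 of the 4 was called lower. Of 7 markers of activated B cells and plasma cells 3 were lower and 1, Tnfrsf13b, was higher. Xbp1, which drives the secretory programme of plasma cells, fell from 300, 380 and 398 CPM to 232, 228 and 244 CPM (adjusted p = 0.00342), and Mzb1, a chaperone of immunoglobulin assembly, was 1.73-fold lower (adjusted p = 0.000153). Of 9 neutrophil markers 4 were lower and none higher, and the receptor Csf3r, whose ligand Csf3 rose, fell from 44.3, 77.1 and 97.1 CPM to 25.9, 45.3 and 42.8 CPM (adjusted p = 0.0189, and 0.0786 and 0.0585 without Naive replicate 3 or LPS replicate 1). Among 7 dendritic cell markers 1 was higher and 1 lower, and 1 was higher and 3 lower with replicate numbers as pairs. The transcription factor Zbtb46 rose from 13.6, 12.04 and 13.8 CPM to 28.2, 27.6 and 26.5 CPM (adjusted p = 1.34e-05), and the integrin Itgax fell from 30.4, 43.4 and 49.3 CPM to 20.96, 13.1 and 13.8 CPM (adjusted p = 0.000391).

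Of 10 genes of the transforming growth factor beta pathway, which restrains T cells, 2 were called higher and 2 lower, with a median of -0.16, and 3 were higher and 5 lower when replicate numbers were used as pairs. Without LPS replicate 1 there were 5 lower and the median was -0.31, without any one Naive library there was 1 higher, and without Naive replicate 3 the median was -0.24. On library size alone none was higher and 5 were lower, and under the B cell marker covariate the median was 0.22. Tgfbr2, a receptor chain, fell from 347, 321 and 307 CPM to 251, 206 and 219 CPM (1.44-fold lower, adjusted p = 0.00728), and Skil, an inhibitor of the pathway, was at 265, 197 and 198 CPM and at 338, 296 and 275 CPM (adjusted p = 0.0143, and 0.0581 and 0.0579 without Naive replicate 2 or 3). The ligand Tgfb1 was at 242, 240 and 247 CPM and at 205, 229 and 232 CPM and was not called (adjusted p = 0.138).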
